A study of Solanum lycopersicum with 12 samples.

Results

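The chitinases and the basic β-1,3-glucanase GluB of tomato (Solanum lycopersicum) were followed by 7 probe sets of the Affymetrix Tomato Genome Array. The genes CHI3, CHI9, CHI14, CHI17 and GluB were found by their symbols in the array annotation, each with 1 probe set. The remaining pair of probe sets has no gene symbol in the annotation used here. Its description as acidic endochitinase comes from the study, and the pair is called endochitinase A and endochitinase B in the text and by probe set in the plots. The chosen probe sets were 7 of the 10038 tomato probe sets on the array, and all 7 were kept in every fit. The main fit had no filter on low signals, and all 7 lay above the limit of an alternative fit with a filter at the 30th percentile.

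The study asked how an acetamidase carried by the biocontrol fungus Trichoderma harzianum alters what the fungus does to the plant. RNA came from the aboveground organs of tomato plants at 3 weeks of age (the tissue label says leaves) in 4 groups of 3 arrays, and each array was hybridized with RNA of 5 pooled plants. The amdS122 plants grew from seeds coated with spores of T. harzianum amdS122, a T34 transformant with a pair of copies of the Aspergillus nidulans amdS gene, which encodes acetamidase, behind the gpdA promoter. The amdS6 plants grew from seeds coated with amdS6, a transformant with a single copy of the same cassette. The T34 plants had their seeds coated with T34 itself, the wild type and parent of both transformants, and the control plants grew from untreated seeds in the same autoclaved soil. Each transformant is 1 monosporic isolate, so that copy number and isolate cannot be told apart. The values are log2 signals made by robust multi-array averaging (RMA), which sets no detection call, and signals of different probe sets are not on a common scale.

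Chitinases (pathogenesis-related family PR-3) cut chitin, a polymer of the fungal cell wall that plants do not make, and β-1,3-glucanases (family PR-2) cut the glucans in which that chitin is embedded. The enzymes act together against hyphae, and the fragments that they release are perceived by the plant as signs of a fungus. In tomato the acidic forms, among them CHI3 and CHI17, are secreted to the spaces between cells, whereas basic forms such as CHI9 and GluB are held in the vacuole. Both kinds are classical markers of induced defence, the acidic ones usually of salicylic acid and the basic ones of ethylene and jasmonate.

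The 7 probe sets did not move as a block. GluB was 4.19-fold lower in amdS6 plants than in control plants, but 1.29-fold lower in amdS122 plants. CHI9 followed the same pattern with smaller differences. CHI3 and CHI17, the acidic forms with a gene symbol, did not go together: CHI3 was higher than control in amdS122 plants only, whereas CHI17 was higher in amdS6 and T34 plants. By contrast, the acidic endochitinases without a symbol were lower by about the same amount with both transformants. T34 plants were never 2-fold away from control plants in any of the 7. In pooled aerial tissue, fewer cells of a type and less RNA per cell cannot be told apart.

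**Figure D1:**
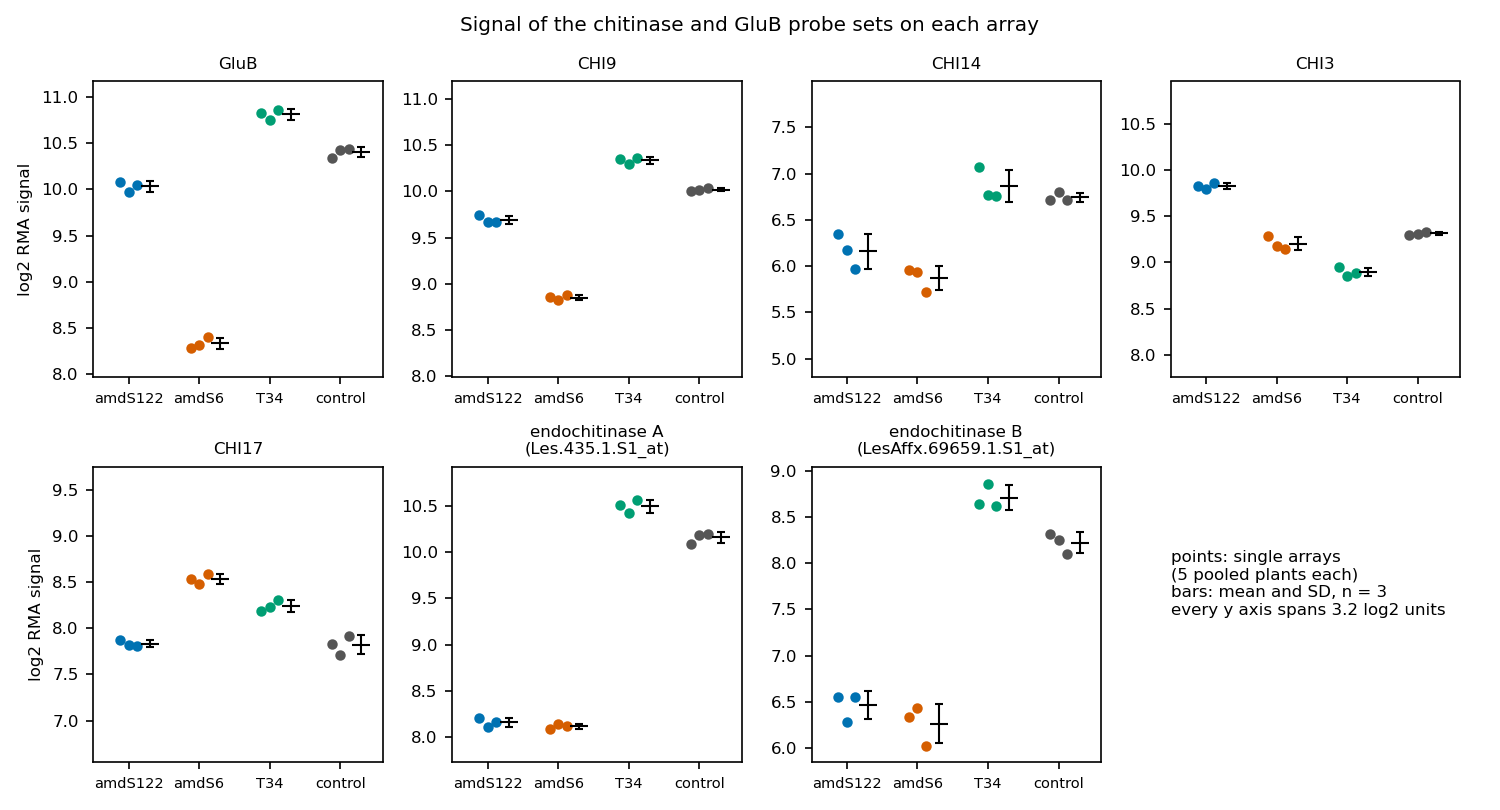
Log2 RMA signal of the 7 probe sets on each of the 12 arrays, by group (amdS122, amdS6, T34, control). Points are arrays of 5 pooled plants, bars the mean and SD (n = 3), and each y axis spans the same range. GluB is low in amdS6 plants, whereas endochitinase A and endochitinase B are low with both transformants.

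All 12 arrays were fitted together with limma, and p-values were adjusted over the 10038 tomato probe sets within each comparison. Calls needed an adjusted p below 0.1 together with a change of at least 2-fold. Between amdS6 and control plants, 4 of the 7 were called and all 4 were lower (GluB, CHI9 and both endochitinases), where 1.67% of all probe sets were called. Without the fold limit 7 of 7 passed, 1 higher and 6 lower, beside 49.9% of all probe sets. Between amdS122 and control plants, 2 of 7 were called, both lower (the endochitinases), beside 2.14% of all. At the adjusted p alone 6 of 7 passed (1 higher, 5 lower), beside 52% of all. The study listed the endochitinases because they fell on these arrays with both transformants, so that their share in these counts is not independent evidence.

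Between T34 and control plants, 0 of 7 were called in limma, beside 0.0897% of all probe sets. At the adjusted p alone 6 of 7 passed, beside 9.89% of all, of which CHI3 was lower and GluB, CHI9, CHI17 and both endochitinases were higher, but with arrays scaled on the hybridisation spikes only GluB, CHI17 and endochitinase B passed. Between amdS6 and T34 plants, 4 of 7 were called, all lower, beside 1.9% of all. At the adjusted p alone 7 of 7 passed (2 higher, 5 lower), beside 45.7%. Between amdS122 and T34 plants 2 of 7 were called, both lower, beside 2.44%, and 7 of 7 passed the adjusted p alone (1 higher, 6 lower), beside 48.9%. Between amdS122 and amdS6 plants 1 of 7 was called, GluB, which was higher, beside 0.717% of all. Without the fold limit 5 of 7 passed (4 higher, 1 lower), beside 38.2%. So large a share of all probe sets passed the adjusted p where a transformant was compared that passing it does not set a probe set apart there.

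The median difference of the 7 from control plants was -0.37 log2 units in amdS122 plants, -1.17 in amdS6 plants and 0.34 in T34 plants, beside medians over all tomato probe sets of 0.02, 0.01 and 0.00. The comparisons with control share the control arrays, and those of transformants with T34 share the transformant arrays with them, so that they are not independent of each other. For 3 arrays on each side the smallest two-sided p of an exact permutation test is 0.1, and the limma p-values rest on a spread pooled over probe sets. They measure the spread between pools of plants.

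**Figure D2:**
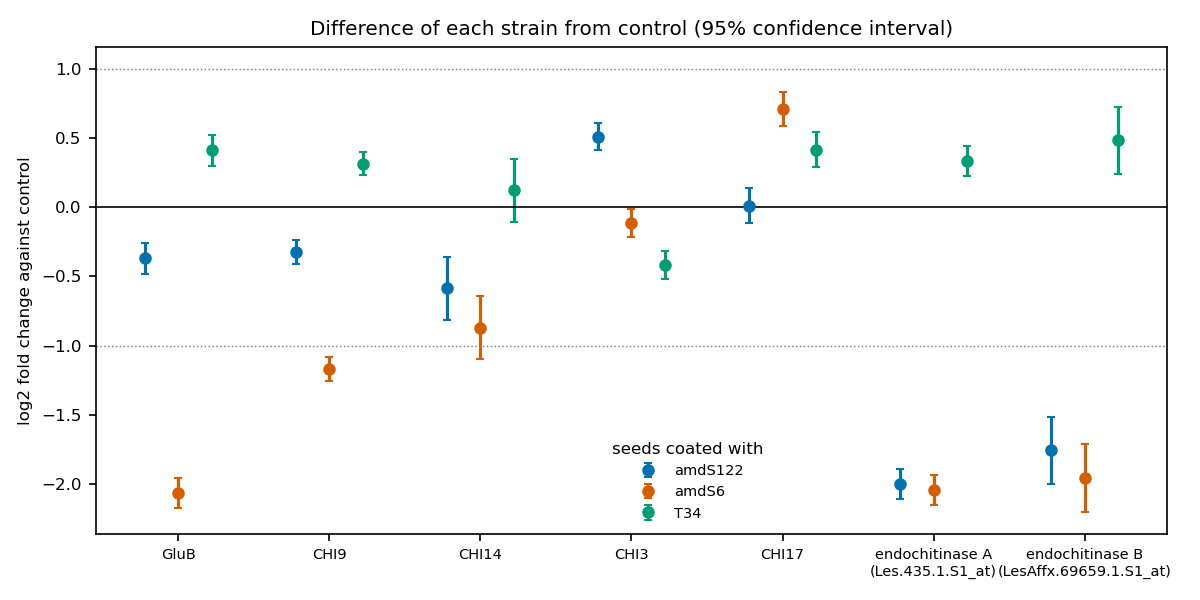
Difference of each strain from control (log2 fold change, y axis) for the 7 probe sets, in the order amdS122, amdS6, T34, with bars for the 95% confidence interval of the fit. Dotted lines mark a 2-fold change. GluB and CHI9 are lower in amdS6 than in amdS122 plants, while CHI17 is above CHI3 in amdS6 and T34 plants and below it in amdS122 plants; scaling on hybridisation spikes turns the amdS6 value of CHI3 to 0.24.

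GluB encodes the basic β-1,3-glucanase. Its log2 signal was 10.08, 9.97 and 10.05 in the amdS122 pools, 8.28, 8.32 and 8.40 in the amdS6 pools, 10.83, 10.75 and 10.86 in the T34 pools, and 10.34, 10.43 and 10.44 in the control pools. The groups did not overlap, and the amdS6 arrays stood far below all 9 others. Over all tomato probe sets, 53.1% did not overlap between amdS6 and control arrays, and 50% between amdS6 and T34 arrays. The share was 53.8% between amdS122 and control, 51.7% between amdS122 and T34, and 46.1% between amdS122 and amdS6 arrays. It was 24.7% between T34 and control arrays. Where a transformant was compared, lack of overlap thus does not set a probe set apart. The difference of GluB between amdS6 and control plants was -2.07 ± 0.051 (SE), or 4.19-fold lower (adjusted p = 3.41e-11), the 34th deepest fall among all tomato probe sets. Set against T34 plants, amdS6 plants were 5.57-fold lower (log2 difference -2.48, adjusted p = 8.81e-12). In amdS122 plants GluB was -0.37 ± 0.051 from control (1.29-fold lower, adjusted p = 9.5e-05) and 1.72-fold lower than in T34 plants. T34 plants were 1.33-fold higher than control plants (log2 difference 0.41, adjusted p = 0.000642).

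Among the 7 probe sets, the transformants differed most at GluB. AmdS122 plants were higher than amdS6 plants by 1.70 ± 0.051 log2 units (3.25-fold, adjusted p = 1.15e-09), the largest positive difference of all 10038 tomato probe sets. Over all tomato probe sets 6 were called higher in amdS122 than in amdS6 plants and 66 lower, and with arrays scaled on the hybridisation spikes 1 (GluB) was called higher and 192 lower. The other 5 as deposited, named after their values were seen, were DFR (dihydroflavonol reductase of anthocyanin synthesis, 1.28), P4 (a PR-1 type protein, 1.19), PR-P2 (a PR-4 type protein that binds chitin, 1.10), a probe set without a symbol (1.04) and the ribonuclease gene RNALE (1.02). Of the 134 probe sets called lower in amdS6 than in control plants, 124 were also called lower in amdS122 plants, and GluB was the 1 of the remaining 10 that was called higher in amdS122 than in amdS6 plants.

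CHI9 encodes a basic chitinase. It measured 9.74, 9.67 and 9.67 in amdS122 plants, 8.85, 8.82 and 8.88 in amdS6 plants, 10.35, 10.30 and 10.36 in T34 plants, and 10.01, 10.01 and 10.04 in control plants. Again no groups overlapped and the order was that of GluB. The difference from control was -1.17 ± 0.039 in amdS6 plants (2.25-fold lower, adjusted p = 5.2e-10), although with arrays scaled on the hybridisation spikes it was -0.81 and no longer 2-fold. It was -0.33 in amdS122 plants (1.25-fold lower, adjusted p = 3.36e-05) and 0.32 in T34 plants (1.25-fold higher, adjusted p = 0.000651). With spike scaling these differences were -0.30 (adjusted p = 0.148) and 0.41 (adjusted p = 0.25). AmdS122 plants exceeded amdS6 plants by 0.84 (1.79-fold, adjusted p = 3.03e-08), the 13th largest positive difference.

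CHI14 is a chitinase gene, and whether its probe set measures a basic or an acidic form was not tested. It had its mean signal at the 33.7th percentile of the tomato probe sets. It measured 6.34, 6.17 and 5.96 in amdS122 plants, 5.96, 5.94 and 5.72 in amdS6 plants, 7.07, 6.77 and 6.76 in T34 plants, and 6.72, 6.80 and 6.72 in control plants. The arrays of both transformants lay below all arrays of T34 and control plants, and the last groups overlapped. The fall against control was 0.87 ± 0.11 log2 units in amdS6 plants (1.83-fold, adjusted p = 4.28e-05) and 0.58 ± 0.11 in amdS122 plants (1.5-fold, adjusted p = 0.000652). T34 plants did not pass the test against control (0.12, 95% confidence interval -0.11 to 0.35, adjusted p = 0.557). The difference between the transformants was 0.29 (adjusted p = 0.0577), but -0.04 with scaling on the spikes. Against T34 plants the fall in amdS6 plants was 1.99-fold, just short of the 2-fold limit, and it passed that limit when amdS6 replicate 1 or 2 or T34 replicate 2 or 3 was left out (-1.03 to -1.05).

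CHI3 encodes an acidic, secreted chitinase, and it was the only 1 of the 7 with its highest signal in amdS122 plants. It measured 9.82, 9.80 and 9.86 in amdS122 plants, 9.29, 9.18 and 9.15 in amdS6 plants, 8.95, 8.86 and 8.89 in T34 plants, and 9.30, 9.31 and 9.33 in control plants. No groups overlapped, though the highest amdS6 array came close to the lowest control array. CHI3 rose in amdS122 plants by 0.51 ± 0.046 against control (1.43-fold, adjusted p = 2.71e-06), by 0.62 against amdS6 plants (1.54-fold, adjusted p = 1.28e-06, but 0.29 with spike scaling, adjusted p = 0.0769) and by 0.93 against T34 plants (1.90-fold, adjusted p = 1.32e-08). In T34 plants it fell by 0.42 against control (1.34-fold, adjusted p = 0.00023), the 43rd deepest fall of that comparison, although with spike scaling the difference was -0.33 with an adjusted p of 0.568. The fall in amdS6 plants was small (-0.11, adjusted p = 0.0668) and turned to 0.24 when arrays were scaled on the spikes.

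CHI17, the other acidic chitinase with a symbol, was highest in amdS6 plants. It measured 7.87, 7.82 and 7.81 in amdS122 plants, 8.54, 8.47 and 8.58 in amdS6 plants, 8.18, 8.23 and 8.30 in T34 plants, and 7.83, 7.71 and 7.92 in control plants. The amdS6 arrays were above all others, T34 came next, and the amdS122 and control arrays overlapped. CHI17 rose by 0.71 ± 0.057 in amdS6 plants (1.64-fold, adjusted p = 1.6e-06) and by 0.42 in T34 plants (1.34-fold, adjusted p = 0.00119). In amdS122 plants the difference from control was 0.013 (95% confidence interval -0.11 to 0.14, adjusted p = 0.873). AmdS122 plants were 1.62-fold lower than amdS6 plants (log2 difference -0.70, adjusted p = 3.11e-06), opposite in sign to GluB, CHI9 and CHI3.

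CHI3 and CHI17 are neighbouring genes, with 0 annotated genes between them in the tomato assembly SLM_r2.1. Their log2 difference within an array, which does not change when all values of an array are shifted alike, was compared between groups. Relative to control plants, CHI3 minus CHI17 was 0.50 higher in amdS122 plants, with arrays between 1.95 and 2.05 against 1.41 to 1.6 in control plants. It was 0.82 lower than control in amdS6 plants (0.56 to 0.75) and 0.83 lower in T34 plants (0.58 to 0.77), and these groups overlapped. Over the 12 arrays the signals of the pair had a Pearson r of -0.60, as a description across arrays of 4 treatments. Such close relatives can share probes, and the probe sequences were not used here.

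The same within-array difference was taken between GluB and CHI9 and between GluB and endochitinase A. GluB minus CHI9 was 0.90 lower in amdS6 than in control plants (-0.58 to -0.47 against 0.33 to 0.42), but within 0.1 of control in amdS122 and T34 plants. GluB minus endochitinase A was 1.63 higher in amdS122 than in control plants (1.87 to 1.89 against 0.24 to 0.25), and within 0.1 of control in amdS6 and T34 plants. Thus in amdS6 plants GluB and that endochitinase fell by like amounts, whereas in amdS122 plants only the endochitinase fell by over 2-fold. The study listed that endochitinase for its fall with both transformants on these arrays, so that its contrast with GluB is a description only.

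Both acidic endochitinase probe sets gave the same picture at different signals. endochitinase A measured 8.21, 8.10 and 8.16 in amdS122 plants, 8.09, 8.14 and 8.12 in amdS6 plants, 10.51, 10.42 and 10.56 in T34 plants, and 10.09, 10.19 and 10.20 in control plants. endochitinase B measured 6.55, 6.29 and 6.56 in amdS122 plants, 6.33, 6.44 and 6.03 in amdS6 plants, 8.64, 8.86 and 8.62 in T34 plants, and 8.32, 8.25 and 8.10 in control plants. For each, the arrays of the transformants overlapped each other and lay well below those of T34 and control plants.

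Endochitinase A was 4.01-fold lower in amdS122 plants and 4.13-fold lower in amdS6 plants than in control plants, and endochitinase B 3.39-fold and 3.88-fold lower in the same order. These falls are given as a description, because the study chose the probe sets for them. Between the transformants, endochitinase A differed by 0.04 (95% confidence interval -0.07 to 0.15, adjusted p = 0.556) and endochitinase B by 0.20 (-0.05 to 0.44, adjusted p = 0.208). The choice asked for a fall with both transformants on these arrays, which favours like values, so that this too is a description. With spike scaling the differences between the transformants became -0.29 for A (adjusted p = 0.0819) and -0.13 for B. T34 plants were higher than control plants in both, by 0.34 ± 0.049 for A (1.26-fold, adjusted p = 0.00183) and by 0.49 ± 0.11 for B (1.40-fold, adjusted p = 0.0254). For A the difference with spike scaling was 0.43 (adjusted p = 0.201). Across the 12 arrays the pair had a Pearson r of 0.99.

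Ordered by mean signal, 5 of the 7 probe sets (GluB, CHI9, CHI14 and both endochitinases) were highest in T34 plants, then control, amdS122 and amdS6 plants. Of all tomato probe sets 4.86% had that order. Neighbours in it overlapped for CHI14 (T34 and control) and for both endochitinases (amdS122 and amdS6), so that the full order held without overlap for GluB and CHI9 only. Over all tomato probe sets, 24.7% did not overlap between T34 and control arrays, 53.8% between amdS122 and control arrays, and 46.1% between amdS122 and amdS6 arrays. CHI3 had the order amdS122, control, amdS6, T34 (3.26% of all) and CHI17 the order amdS6, T34, amdS122, control (2.94% of all), in which amdS122 and control overlapped.

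**Figure D3:**
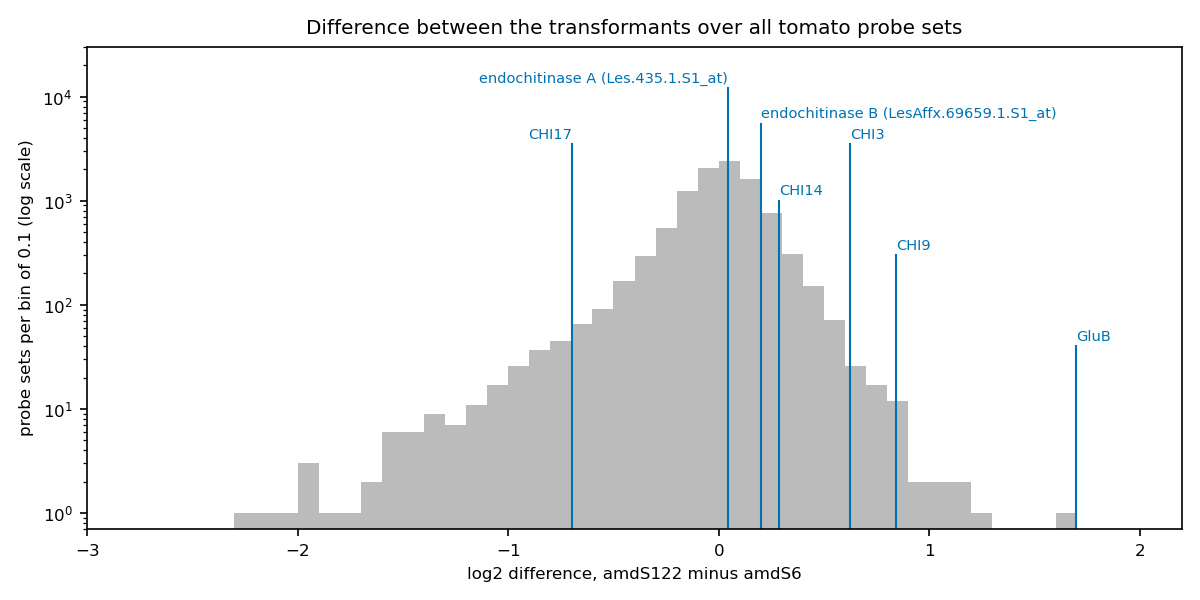
Number of tomato probe sets (log axis) by their log2 difference, amdS122 minus amdS6, in bins of 0.1, with the 7 probe sets marked by lines whose height has no meaning. GluB lies at 1.70, beyond all others on the positive side, while CHI17 lies at -0.70; under spike scaling CHI14 and both endochitinases move below 0.

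Of other chitin or glucan hydrolases, 1 probe set was found, which has no symbol and which the study describes as an endo-β-N-acetylglucosaminidase and lists for its fall. It was lower than control in amdS122 plants (-1.33) and in amdS6 plants (-1.03). It was also lower in amdS122 than in amdS6 plants (-0.30, limma adjusted p = 0.000626), a contrast that neither endochitinase passed as deposited. An acidic β-1,3-glucanase was not found by symbol. Eix1, a receptor-like protein that binds a fungal xylanase, was the only probe set found for fungal elicitor receptors. It was -3.10 from control in amdS122 plants and -2.80 in amdS6 plants, a fall for which the study lists it, and 0.22 in T34 plants (adjusted p = 0.185).

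Other pathogenesis-related proteins had 8 probe sets that were found by symbol or synonym. P4, named above, was not matched by the rule set beforehand and is not counted among the 8. At the adjusted p, 3 were higher and 3 lower in amdS122 than in control plants, 0 higher and 6 lower in amdS6 plants, and 3 higher and 0 lower in T34 plants, where 52%, 49.9% and 9.89% of all probe sets passed in the same order. With spike scaling the amdS6 count was 2 higher and 4 lower, and the amdS122 count 1 higher and 3 lower. Between amdS122 and amdS6 plants 6 of 8 were higher and 0 lower, beside 38.2% of all probe sets that passed in either direction, with a median of 0.61 beside 0.02 over all, and 1 was called, whereas with spike scaling 4 were higher and 1 lower. P69B, a subtilisin-like protease, resembled CHI9: -0.45 from control in amdS122 plants and -1.22 in amdS6 plants, a called fall (adjusted p = 1.33e-08) that was -0.87 and no longer 2-fold with spike scaling. NP24-I, an osmotin-like protein, differed by -0.09 in amdS122 plants (adjusted p = 0.248) and by -0.90 in amdS6 plants (adjusted p = 4.45e-07).

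PR-5, of the thaumatin-like family, behaved like the endochitinases, at -1.58 from control in amdS122 plants and -1.76 in amdS6 plants, falls for which the study lists it. LOC543878, found by the synonym PR5, was -0.44 from control in amdS122 plants, -0.93 in amdS6 plants and 0.86 in T34 plants. PR-P2 rose like CHI3 in amdS122 plants, by 0.84 (adjusted p = 2.58e-05), and its difference from control was -0.26 in amdS6 plants (0.09 with spike scaling) and -0.18 in T34 plants (adjusted p = 0.332). Of the pair of probe sets for PR1b1, a PR-1 protein, that with the high signal was -0.54 from control in amdS6 plants and 0.18 in amdS122 plants, neither of which passed with spike scaling, whereas the other, at a log2 signal near 4, passed in no comparison as deposited.

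**Figure D4:**
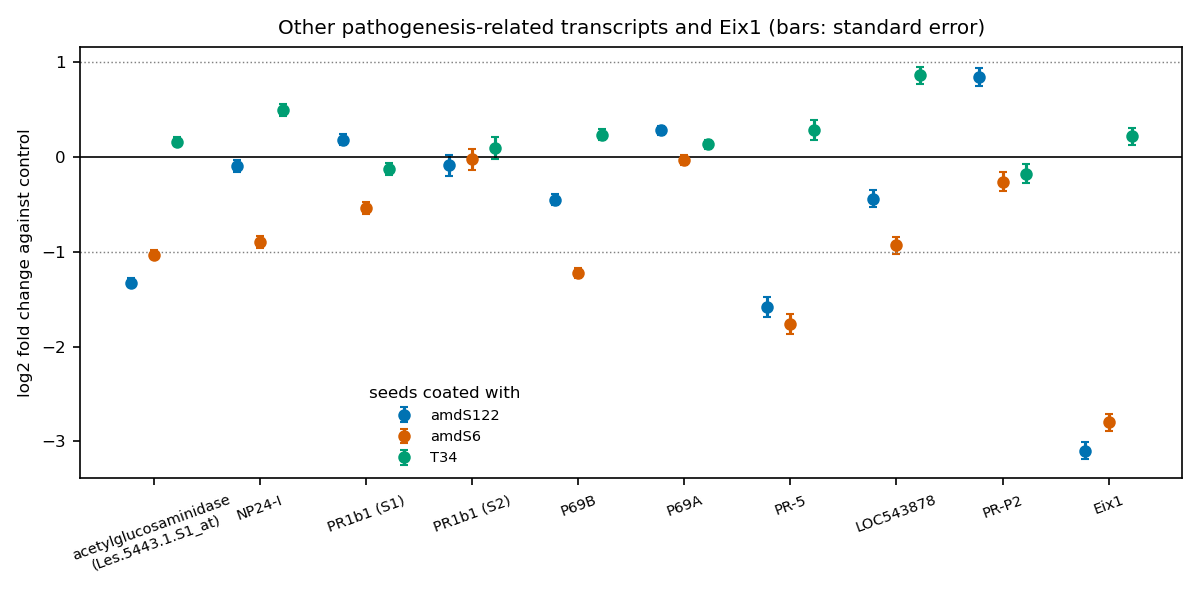
Log2 fold change against control (y axis) of the other chitin hydrolase, 8 pathogenesis-related probe sets and Eix1, in the order amdS122, amdS6, T34, with bars for the standard error and dotted lines at 2-fold. P69B, NP24-I and LOC543878 are lower in amdS6 than in amdS122 plants, PR-5 and Eix1 are low with both transformants, and PR-P2 is higher in amdS122 plants.

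For each called probe set, the 3 probe sets with a gene symbol, outside the 7, most like it over the 12 arrays were sought by Pearson r, as a description over arrays of 4 treatments. For CHI9 they were P69B (0.989), the sucrose synthase gene sus3 (0.987) and SCOA (0.981). For GluB they were LOC543812 (0.977), P69B (0.975) and NP24-I (0.972). For endochitinase A they were the invertase gene Wiv-1 (0.997), ODD (0.995) and the hexose transporter gene HT2 (0.995), and for endochitinase B Wiv-1 (0.988), HSP17-6 (0.987) and ODD (0.987). No gene stood in the list of an endochitinase and also in that of GluB or CHI9, which says little for lists of 3. CHI9 and GluB themselves correlated at 0.991. With endochitinase A and B, CHI9 correlated at 0.842 and 0.864, GluB at 0.776 and 0.801, and CHI14 at 0.935 and 0.941. CHI14 correlated with CHI9 at 0.907.

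Other properties of the arrays moved with the groups. The 3′ minus 5′ signal of the actin, ef1a and gapdh control probe sets, which grows as RNA degrades, was 2.85 ± 0.13 in amdS122, 3.06 ± 0.064 in amdS6, 3.23 ± 0.047 in T34 and 3.37 ± 0.072 in control arrays (SD, n = 3 each), and the arrays of the transformants did not overlap the others. With it as a covariate no count of called probe sets among the 7 changed. All 8 leaf markers (photosynthesis genes) were at the top of the array, and 0 of 8 passed the test between any strain and control. The log2 of their summed signals was 17.10 to 17.15 in every group. Their group means of 13.83 to 14.38 lay close to the highest signal on any array (14.74), which leaves little room to see a rise. With spike scaling 8 of 8 passed as higher in amdS6 plants, with a median of 0.36 beside 0.37 over all tomato probe sets. The 3 root markers (PT1, PT2 and TIP), none of which can be called absent without a detection call, passed as lower in both transformants against control (3 of 3 in each, but 1 of 3 in amdS6 plants with spike scaling). The log2 of their summed signals was 8.40 to 8.52 in amdS122, 8.65 to 8.67 in amdS6, 9.46 to 9.62 in T34 and 9.10 to 9.38 in control arrays. PT2 had a low mean signal (9.57th percentile). Of all probe sets, 52% passed in either direction in amdS122 and 49.9% in amdS6 plants as deposited. Of the 4 shoot meristem markers (T6, KN1, WUS and FALSIFLORA), 2 passed as higher and 0 as lower in amdS122 plants, and 1 as higher (T6) and 1 as lower (KN1, -0.19) in amdS6 plants, whereas with spike scaling 1 was higher in amdS122 plants and 3 in amdS6 plants. T6 was 1.08 above control in amdS122 plants and 0.77 in amdS6 plants. KN1, WUS and FALSIFLORA had low mean signals (12th, 6.98th and 4.57th percentile). The log2 of the summed signals of the 4 meristem markers was 7.47 to 7.62 in amdS122, 7.27 to 7.34 in amdS6, 6.61 to 6.79 in T34 and 6.85 to 6.94 in control arrays. T6 had the highest mean of the 4 in every group (7.026 in amdS122 and 5.948 in control arrays), so that the sum mostly follows T6. The means of WUS and FALSIFLORA were lower in amdS122 than in control arrays, and that of KN1 was higher. The part of RNA quality, root and meristem markers in the differences of the 7 probe sets was not tested.

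Scaled on the hybridisation spikes instead of as deposited, the median difference of all tomato probe sets was 0.37 between amdS6 and control plants and -0.32 between amdS122 and amdS6 plants. GluB and the endochitinases kept their calls in amdS6 against control under that scaling, and CHI9 did not. Signals over all arrays ran from 3.31 to 14.74 and the median SD within groups was 0.079. The mean spike signal had an SD of 0.23 in control, 0.059 in T34, 0.11 in amdS6 and 0.097 in amdS122 arrays. Spike scaling carries that spread into every probe set, so that an adjusted p can rise where the difference does not shrink. Precision is limited by having 3 arrays a group.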

How the data were processed

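RNA of 12 pools of 5 plants was hybridized to 12 Affymetrix Tomato Genome Arrays. The deposited log2 values were made by the authors with RMA (background correction, quantile normalization over arrays, summary of probes) in Affymetrix Expression Console, whose versions are not given in the sources used here. They were used as deposited. Of 10209 features, the tests used the 10038 of tomato, the 108 controls were read for spikes and RNA quality, and the 63 reporters were not used. One mean per group was fitted with lmFit and eBayes of limma 3.58.1 in R 4.3.3 (prior degrees of freedom 3.69, residual 8), in place of the multi-class SAM of the study, because each pair of groups was to be tested. P-values were adjusted by Benjamini-Hochberg over all tomato probe sets within a comparison, and the limits (adjusted p under 0.1, at least 2-fold) are those of the study. The script was checked on simulated data.

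The 7 probe sets, the gene lists and the tests were chosen with earlier results of these data known. Named were the 7 probe sets, the other chitin hydrolases, the listed pathogenesis-related and receptor genes called in at least 1 comparison, and the 3 probe sets most like each called one. PR1b1 was also described, although it was called in no comparison. P69A, likewise not called, was only plotted. Lists were matched by whole symbol or synonym (909 probe sets have a symbol), because the tables used here hold no gene descriptions. Alternatives were an F test over the 4 groups, a replicate block, fits of the compared groups alone, median centring, further quantile normalization, spike scaling, a filter at the 30th percentile, a variance trend, array weights, other limits, an RNA quality covariate, linear means and leaving out each array.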

Additional observations from a re-analysis of the deposited data

Results flagged for a closer look

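Some differences from control in a transformant were tested as different from that in T34 plants, which is the contrast of the transformant with T34 itself (limma, past the adjusted p and 2-fold). For GluB the contrast was -2.48 in amdS6 against T34 plants, and for CHI9 it was -1.49. For endochitinase A it was -2.34 in amdS122 and -2.38 in amdS6 plants, and for endochitinase B -2.24 in amdS122 and -2.44 in amdS6 plants, all against T34 plants. The fall of the endochitinases on the same transformant arrays was the reason for which the study listed them. GluB also differed between amdS122 and amdS6 plants, by 1.70, and the 95% confidence intervals of the same contrast for the endochitinases included 0. The choice of the endochitinases for a fall with both transformants favours that likeness.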

How the results depend on the processing

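Of the counts of called probe sets recomputed under the alternatives, 101 were within 1.5 times the value given and 7 were not. Without the fold limit the counts were 7 of 7 for amdS6 against control, 6 for amdS122 against control, 6 for T34 against control, 7 for amdS6 against T34, 7 for amdS122 against T34 and 5 for amdS122 against amdS6. With spike scaling the count for amdS122 against amdS6 was 2, because CHI17 reached -1.03. Of the differences of single probe sets, 656 kept direction and side of the threshold, 6 turned sign, 9 passed and 1 lost it. Signs turned with spike scaling for CHI3 in amdS6 against control (0.24, adjusted p = 0.121) and, in amdS122 against amdS6, for CHI14 (-0.045), endochitinase A (-0.29) and endochitinase B (-0.13). The near-0 difference of CHI17 between amdS122 and control plants turned to -0.0069 without amdS122 replicate 1 and -0.040 without control replicate 2, and ran up to 0.063 without the other arrays. CHI9 in amdS6 against control lost its call with spike scaling (-0.81) and CHI17 gained one (1.07), so that the count stayed at 4. At the adjusted p alone, spike scaling left 3 of 7 for T34 against control, 5 for amdS122 against control, 6 for amdS6 against control and 5 (3 higher, 2 lower) for amdS122 against amdS6. Over all tomato probe sets it moved the calls of amdS6 against control to 164 higher and 93 lower (34 and 134 as deposited) and of amdS6 against T34 to 84 higher and 114 lower (31 and 160 as deposited). CHI14 in amdS6 against T34 passed 2-fold with median centring (-1.02), quantile normalization (-1.01) and array weights (-1.08). The cause was not tested. Leaving out single arrays, the count for amdS6 against T34 ran from 4 to 5, and the other counts did not move. GluB ran from -2.10 to -2.04 in amdS6 against control, and from 1.67 to 1.73 in amdS122 against amdS6.

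Groups share replicate numbers, but arrays of the same number did not all deviate together (r of -0.05 to 0.55 over 18 pairs, 10 above 0.1). Their median r was 0.17, beside -0.09 for pairs of different number, of which 8 of 36 were above 0.1. Of the 12 arrays, 7 correlated best with their own number. With a replicate block the counts among the 7 probe sets were as given: 4 for amdS6 against control, 2 for amdS122 against control, 0 for T34 against control, 4 for amdS6 against T34, 2 for amdS122 against T34 and 1 for amdS122 against amdS6. RMA sets no detection call, so that how far low signal limits CHI14 and endochitinase B, the probe sets of lowest signal among the 7, is unknown.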
